A study of Mus musculus with 6 samples.

Results

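The interferon regulatory factors are a family of transcription factors, and 8 of their genes (Irf1, Irf2, Irf3, Irf4, Irf5, Irf7, Irf8 and Irf9) are described here in macrophages taken from mouse tumours. They were chosen by symbol, and each matched 1 of the 15487 genes of the deposited table. The RNA came from tumour-associated macrophages isolated by flow cytometry on day 15 after implantation of CT26, a colon carcinoma line of BALB/c mice. The tumours carry the labels Sg-C3 and Sg-Con, read here as tumour cells given a guide RNA against complement C3 and tumour cells given a control guide RNA, with 3 libraries in each group. The macrophage samples of both groups are labelled wild type and BALB/C, so the guide against C3 concerns the implanted cells, and the host's own C3 gene is not said to be altered. The sources used here do not give whether an edited line was 1 clone, whether animals were pooled, or whether replicates were different animals. The p-values therefore set group differences only against the variation among these libraries, and part of that variation may be technical.

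Interferon regulatory factors share a DNA-binding domain marked by repeated tryptophans, which recognises the GAAA core of the interferon-stimulated response element. IRF3 and IRF7 wait in the cytoplasm until the kinases TBK1 and IKK epsilon phosphorylate them downstream of nucleic acid sensors, and they then switch on interferon beta and other type I interferon genes. IRF9 joins STAT proteins in the complex ISGF3, which carries the type I interferon signal to the DNA. IRF1 is induced by interferon gamma and activates genes of antigen presentation, and IRF2 competes with it for the same sites. IRF5 acts downstream of MyD88 on inflammatory cytokine genes, while IRF4 and IRF8 bind DNA weakly alone and pair with PU.1 or BATF proteins. In macrophages IRF8 is a lineage factor, and IRF4 is tied to alternative activation.

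The promoters of Irf1, Irf2, Irf8 and Irf7 are printed because the first 3 hold a match to an interferon-linked motif and Irf7 was the member with the highest fold change. They are RefSeq promoters of GRCm38.p6, from 250 bases before to 50 bases after the transcript start, in the gene's direction, and capitals mark motif matches. The motifs searched on both strands were GAAANNGAA (response element), TTCNNNGAA (the gamma-activated site of interferon gamma signalling) and GGAANNGAA (the composite element bound by PU.1 with IRF4 or IRF8). The submitters' processing notes name mm8 for the expression data, so these positions are not of that build.
Irf1, chr11:53769764-53770063, plus strand: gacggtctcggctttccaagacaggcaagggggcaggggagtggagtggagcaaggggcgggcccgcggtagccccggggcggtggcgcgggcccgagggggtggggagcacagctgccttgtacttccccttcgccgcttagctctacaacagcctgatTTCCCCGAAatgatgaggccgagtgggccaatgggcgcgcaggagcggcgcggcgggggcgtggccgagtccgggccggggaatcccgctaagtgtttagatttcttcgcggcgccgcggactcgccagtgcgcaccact
Irf2, chr8:46739495-46739794, plus strand: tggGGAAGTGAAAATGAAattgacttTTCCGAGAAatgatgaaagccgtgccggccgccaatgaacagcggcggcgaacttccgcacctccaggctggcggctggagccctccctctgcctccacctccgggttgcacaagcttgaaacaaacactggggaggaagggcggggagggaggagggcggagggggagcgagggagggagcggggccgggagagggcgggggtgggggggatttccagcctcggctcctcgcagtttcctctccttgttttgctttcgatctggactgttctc
Irf8, chr8:120736108-120736407, plus strand: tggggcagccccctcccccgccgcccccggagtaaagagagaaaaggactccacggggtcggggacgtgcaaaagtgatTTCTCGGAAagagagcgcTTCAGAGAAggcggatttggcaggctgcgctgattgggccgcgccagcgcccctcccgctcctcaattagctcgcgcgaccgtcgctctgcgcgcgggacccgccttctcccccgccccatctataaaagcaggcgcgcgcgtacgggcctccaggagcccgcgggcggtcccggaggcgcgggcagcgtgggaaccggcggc
Irf7, chr7:141266375-141266674, minus strand: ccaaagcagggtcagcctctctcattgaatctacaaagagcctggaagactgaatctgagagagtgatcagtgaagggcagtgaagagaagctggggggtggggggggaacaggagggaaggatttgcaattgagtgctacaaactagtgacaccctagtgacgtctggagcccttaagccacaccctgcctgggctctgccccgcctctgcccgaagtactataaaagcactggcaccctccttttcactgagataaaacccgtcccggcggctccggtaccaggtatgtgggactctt

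In the printed Irf1 promoter the capitals are 1 gamma-activated site that begins 90 bases before the start. The printed Irf8 promoter holds 2 such sites. Irf1 and Irf8 each have another RefSeq promoter farther downstream, which holds no match to any of the motifs and is not printed. In the Irf2 promoter a composite element and a response element overlap in the first capital run, and a gamma-activated site follows. No match was found in this window of Irf7, nor in the promoters of Irf3, Irf4, Irf5 and Irf9, which says only that these letters do not occur there. Over all genes of the promoter table, 9.76% hold the response element, 9.55% the gamma-activated site and 9.42% the composite element in at least 1 promoter, against 1, 3 and 1 of the 8 Irf genes.

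Depth was read from the values, since the deposited table holds FPKM (fragments per kilobase of gene, scaled to sequencing depth) and no counts. Values of short non-coding genes mostly fell on whole multiples of 1 read and imply 17.6 to 18.9 megareads in Sg-C3 and 18.5 to 19.3 in Sg-Con, so that 1 read per kilobase is worth 0.0518 to 0.0570 FPKM. No 2 libraries were identical. All 10 macrophage markers were detected in each library. They summed to between 8610 and 11129 FPKM in Sg-C3 and between 14629 and 16025 FPKM in Sg-Con. Of the 10, 4 were called lower, none higher and 6 were not called. This and the marker counts below are to be read beside the 31.7% of all tested genes called lower and the 12.7% called higher. Lyz2 was the most abundant, at 3378 ± 579 FPKM in Sg-C3 and 7712 ± 915 FPKM in Sg-Con (SD, n = 3 each), so it weighs heavily in the sums. Of other cells, the summed markers of T cells spanned 32.9 to 41.4 FPKM in Sg-C3 and 19.4 to 22.8 FPKM in Sg-Con. Most of each sum came from Il7r and Cd4, and 6 of the 9 markers averaged below 1 FPKM over all libraries. Il7r, the most abundant of them, did not pass, and the other 2 tested (Cd4 and Cd3g) were called higher. Cd3g was under 1 FPKM in every Sg-Con library. It passed the low-value filter (at least 1 FPKM in 3 of 6 libraries) through Sg-C3 alone. Without the filter 6 of the 9 were called higher and none lower. Fibroblast markers (led by Dcn) summed to 143 to 208 FPKM in Sg-C3 and 67.5 to 93.3 FPKM in Sg-Con, with 4 of 8 called higher and 2 lower. Carcinoma markers (led by Krt8) summed to 2.43 to 3.15 FPKM in Sg-C3 and 16.3 to 29.9 FPKM in Sg-Con, where most of it was Krt8. Both tested (Krt8 and Cdh1) were called lower. Krt8 was under 1 FPKM in every Sg-C3 library and passed the low-value filter through Sg-Con alone. Of the 7 carcinoma markers the other 5 averaged below 1 FPKM over all libraries. Without the filter those 5 were not called, and Krt8 and Cdh1 were still lower. Markers of other and mature dendritic cells summed to 183 to 281 FPKM in Sg-C3 and 281 to 373 FPKM in Sg-Con, most of it Cd83, which was called lower. In the same list Ccr7 averaged 32.8 ± 12.4 FPKM in Sg-C3 and 2.43 ± 0.986 FPKM in Sg-Con, and it and Ccl22 were called higher. The part of these cells in the Irf results was not tested. No marker in the table was at 0 throughout a group. C3 RNA in the sorted samples (173 ± 24.5 FPKM in Sg-C3, 75.9 ± 15.3 FPKM in Sg-Con, SD, n = 3 each) does not check labels that concern the tumour cells.

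Of the 8 Irf genes, 3 rose in Sg-C3 (Irf7, Irf1 and Irf9) and 2 fell (Irf2 and Irf3), while Irf4, Irf5 and Irf8 did not pass. A call is a Benjamini-Hochberg adjusted p below 0.05 in limma's test on log2(FPKM + 1) over 11198 genes, of which 12.7% were called higher and 31.7% lower. The 3 of 8 higher calls thus stand against 12.7% of all genes and the 2 of 8 lower calls against 31.7%. The groups did not overlap in the same 5 members, against 57.6% of all tested genes, so that non-overlap is close to the background. Scaling moved these counts. The tested genes as a whole had a median log2 fold change of -0.16 as deposited, and median-ratio scaling brings this to -0.02. With that scaling 5 members were higher (Irf5 and Irf8 joined) and 0 lower. In sorted bulk RNA a change in which cells are present and a change of RNA per cell cannot be told apart.

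**Figure D1:**
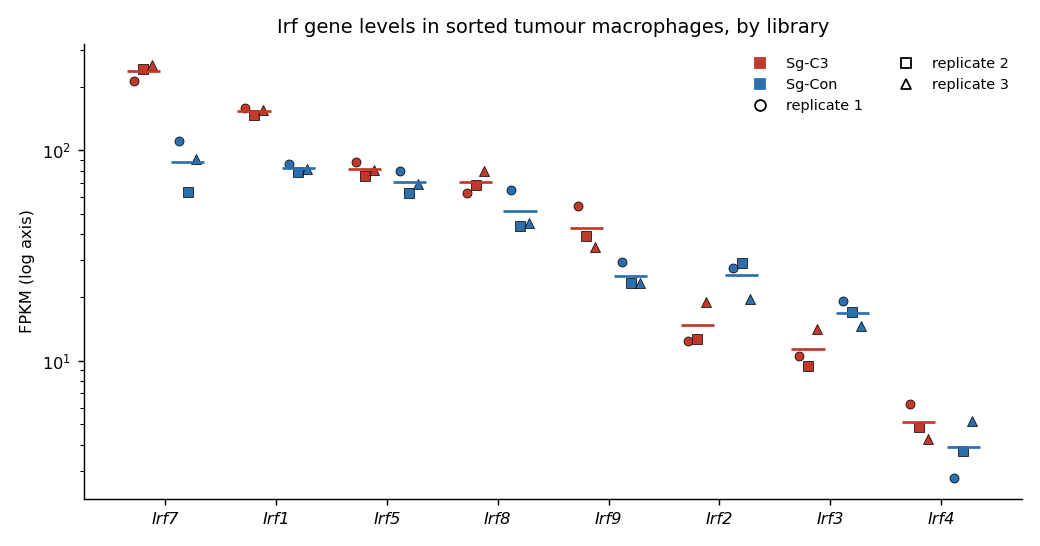
FPKM of each Irf gene on a log axis, with Sg-C3 libraries in red left of Sg-Con libraries in blue, marker shapes for replicates 1 to 3 and bars for the group means. Irf7 and Irf1 stand highest and Irf4 lowest, with every Sg-C3 value above every Sg-Con value for Irf7, Irf1 and Irf9 and below for Irf2 and Irf3.

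Irf7 is the family member that amplifies type I interferon production. It measured 213, 242 and 255 FPKM in Sg-C3 replicates 1 to 3, against 111, 63.0 and 90.9 FPKM in Sg-Con. The lowest Sg-C3 library stood well above the highest Sg-Con library, and the spread was wider in Sg-Con, where replicate 2 was lowest. The mean was 2.68-fold higher in Sg-C3 (236.8 ± 21.1 against 88.3 ± 24.1 FPKM, SD, n = 3 each), a log2 fold change of 1.45 (SE 0.20, 95% interval 0.98 to 1.91, limma adjusted p = 0.00286). It exceeded the fold changes of 97.8% of tested genes, and ran from 1.23 without Sg-Con replicate 2 to 1.63 without Sg-Con replicate 1, past the threshold each time.

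Irf1, the interferon gamma-induced activator, had the tightest replicates of the family. Its values were 158, 147 and 155 FPKM in Sg-C3, against 85.7, 78.6 and 81.3 FPKM in Sg-Con. The groups were far apart relative to their spread, with a log2 fold change of 0.90 (SE 0.08, limma adjusted p = 0.00115) that kept to between 0.87 and 0.93 with any library left out.

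Irf9, the DNA-binding subunit of ISGF3, measured 54.2, 39.3 and 34.7 FPKM in Sg-C3, against 29.4, 23.3 and 23.4 FPKM in Sg-Con. Sg-C3 replicate 1 was highest and the groups did not overlap. The log2 fold change was 0.71 (SE 0.18, limma adjusted p = 0.0164), or 0.53 (adjusted p = 0.036) without Sg-C3 replicate 1, and the call was lost without Sg-Con replicate 2 (0.66, adjusted p = 0.0503). The sum of the 10 neutrophil markers, led by S100a9, had the same order among the Sg-C3 libraries, at 1347, 705 and 394.5 FPKM. In Sg-Con the sum was 218.5, 163 and 233 FPKM, and 4 of the 8 tested markers were called higher. Most of the single markers did not follow the order of the sum in Sg-C3. In Sg-Con the orders differed, with replicate 3 highest for the summed neutrophil markers and replicate 1 highest for Irf9. The order of Irf9 in Sg-C3 was also that of the ISGF3 targets listed below, except Ifit3, Ifi44 and Bst2. The part of neutrophils in the Irf9 result was not tested beyond the value without Sg-C3 replicate 1.

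Irf2, the counterpart of Irf1, measured 12.5, 12.8 and 19.02 FPKM in Sg-C3, against 27.5, 29.3 and 19.7 FPKM in Sg-Con. The replicates 3 of the groups nearly met, and the other libraries stood well apart. Replicate 3 of each group also carries another title prefix than replicates 1 and 2. The groups share no prefix, and the labels do not say what the prefixes mark. The part of the prefix was therefore tested as a covariate only, under which Irf2 passed. That covariate coded replicate 3 of both groups alike, which is an assumption and not a labelled batch. The log2 fold change was -0.76 (SE 0.20, limma adjusted p = 0.0218), which is -0.60 with median-ratio scaling (adjusted p = 0.056). The call was also lost without Sg-C3 replicate 1 or 2 or Sg-Con replicate 1 or 2, at adjusted p of 0.0738, 0.0781, 0.0601 and 0.0661, while the fold change stayed between -0.94 and -0.65.

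Irf3, the constitutive sensor-driven factor, measured 10.5, 9.43 and 14.1 FPKM in Sg-C3, against 19.2, 17.0 and 14.6 FPKM in Sg-Con. Here too the replicates 3 were almost level. The log2 fold change of -0.55 (SE 0.16, limma adjusted p = 0.0324) did not pass with quantile normalization (-0.42, adjusted p = 0.0646), with median-ratio scaling (-0.39, adjusted p = 0.0898) or with the prefix of the sample titles as a covariate (adjusted p = 0.053). Leaving out Sg-C3 replicate 1 or 2 or Sg-Con replicate 1 or 2 also ended the call, at adjusted p of 0.096, 0.107, 0.0929 and 0.0785. Set against the median of all genes at -0.16, Irf3 was the smaller of the 2 falls.

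**Figure D2:**
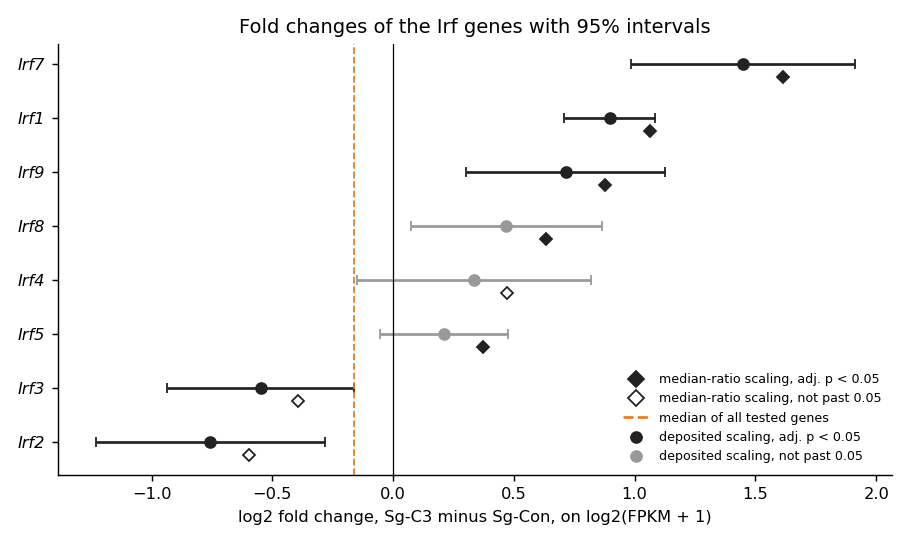
Log2 fold change of each Irf gene (Sg-C3 minus Sg-Con) with limma's 95% interval as circles under the deposited scaling (black where adjusted p is below 0.05, grey otherwise), and as diamonds under median-ratio scaling (filled where called). The dashed line is the median of all tested genes at -0.16, and Irf2 and Irf3 lie below it in both scalings but are called in the deposited one only.

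Irf8, the lineage factor of monocytes, macrophages and type 1 dendritic cells, measured 63.0, 68.5 and 79.7 FPKM in Sg-C3, against 64.8, 43.7 and 45.0 FPKM in Sg-Con. Sg-Con replicate 1 lay within the Sg-C3 range. The log2 fold change of 0.47 (95% interval 0.07 to 0.86) had a limma adjusted p of 0.0568. It passed without Sg-Con replicate 1 (0.65, adjusted p = 0.0129), with array weights (adjusted p = 0.036) and with median-ratio scaling (0.63, adjusted p = 0.0244). The 8 markers of type 1 dendritic cells, led by Naaa, also overlapped between groups, at 124, 157 and 175 FPKM summed in Sg-C3, against 139, 69.8 and 114 FPKM in Sg-Con, and 2 of the 6 tested were called higher (Xcr1 and Batf3). Without the low-value filter 3 of the 8 were called higher and none lower, with Clec9a added (limma adjusted p = 0.0064). Clec9a averaged 1.08 ± 0.426 FPKM in Sg-C3 and 0.0667 ± 0.0252 FPKM in Sg-Con (SD, n = 3 each). The part of dendritic cells in the Irf8 values was not tested.

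Irf5, which drives inflammatory cytokine genes, measured 88.1, 75.6 and 80.4 FPKM in Sg-C3, against 79.8, 62.8 and 68.7 FPKM in Sg-Con. The groups overlapped, with a log2 fold change of 0.21 (95% interval -0.06 to 0.48, limma adjusted p = 0.166) that passed with median-ratio scaling only (0.37, adjusted p = 0.0268). In the RefSeq table of GRCm38 the gene overlaps Tnpo3, and the sources used here do not give whether the counting used strand.

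Irf4 was the least abundant member in all 6 libraries. It measured 6.25, 4.83 and 4.24 FPKM in Sg-C3, against 2.77, 3.72 and 5.20 FPKM in Sg-Con. Its highest Sg-Con library exceeded 2 of the 3 Sg-C3 libraries, and the log2 fold change of 0.34 (95% interval -0.15 to 0.82, limma adjusted p = 0.215) did not pass under any alternative that tested it. In Sg-C3 its order over the libraries was also that of the summed neutrophil markers, though not of most single ones. In Sg-Con the order of the sum differed from that of Irf4. The part of neutrophils in the Irf4 values was not tested. B cells and plasma cells also use Irf4 strongly. Their 9 markers, led by Sdc1, summed to 32.9 to 55.9 FPKM in Sg-C3 and 21.0 to 26.6 FPKM in Sg-Con, with no defining marker at 0 in a whole group. Of the 3 tested markers of that list Cd22 alone was called, higher in Sg-C3. The part of these cells in the Irf4 values was not tested.

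Because FPKM is per length, levels of different members can be set beside each other. In Sg-C3 the order from high to low was Irf7, Irf1, Irf5, Irf8, Irf9, Irf2, Irf3 and Irf4 in each of the 3 libraries. Neighbours whose ranges overlapped there were Irf5 with Irf8 and Irf2 with Irf3. In Sg-Con the means ran Irf7, Irf1, Irf5, Irf8, Irf2, Irf9, Irf3 and Irf4, and the ranges of Irf7, Irf1 and Irf5, of Irf5 and Irf8, and of Irf2 and Irf9 overlapped from one to the next. Sg-Con replicate 2 was the library where Irf1 stood above Irf7 and Irf2 above Irf9.

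The 8 genes together summed to 606, 599 and 642 FPKM in Sg-C3, against 420, 321 and 349 FPKM in Sg-Con, with no overlap. Irf7 made up 38.5 ± 2.82% of that sum in Sg-C3 and 24.0 ± 3.83% in Sg-Con (SD, n = 3 each). Irf5 held 13.2 ± 1.13% in Sg-C3 and 19.4 ± 0.381% in Sg-Con, although its own FPKM overlapped. The share of Irf2 was 2.38 ± 0.504% in Sg-C3 and 7.10 ± 1.79% in Sg-Con, and that of Irf9 was level at 6.97 ± 1.80% and 6.98 ± 0.278%. These shares are descriptions with no test.

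**Figure D3:**
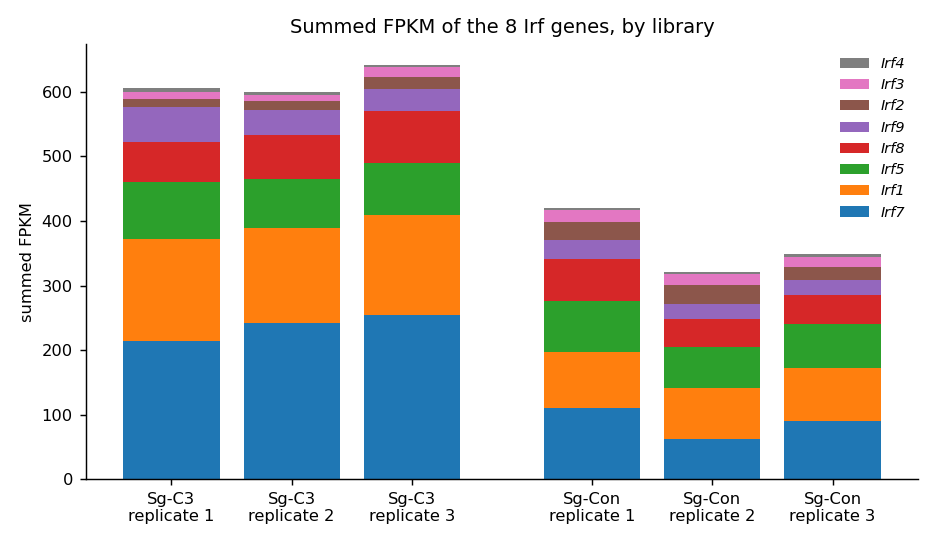
Summed FPKM of the 8 Irf genes in each library, Sg-C3 left and Sg-Con right, with each gene's FPKM as a coloured segment. The Sg-C3 sums lie between 599 and 642 and the Sg-Con sums between 321 and 420, and the Irf7 segment differs most.

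Ratios of 2 members within a library do not depend on how libraries are scaled, and 6 were compared with a two-sided exact permutation test, which with 3 against 3 libraries cannot give a p below 0.1. The ratio of the activator Irf1 to its competitor Irf2 was 12.7, 11.5 and 8.15 in Sg-C3, against 3.12, 2.69 and 4.13 in Sg-Con. All Sg-C3 libraries lay above all Sg-Con libraries, and the mean log2 ratio differed by 1.70 (SE 0.27, exact p = 0.1, adjusted p = 0.15 over the 6 ratios). Irf7 over Irf3, the inducible over the constitutive partner, was 20.3, 25.7 and 18.0 in Sg-C3, against 5.78, 3.70 and 6.24 in Sg-Con. This was the largest of the 6 differences, 2.05 in log2 (SE 0.28, exact p = 0.1, adjusted p = 0.15).

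Irf9 over Irf3 was 5.16, 4.17 and 2.46 in Sg-C3, against 1.53, 1.37 and 1.61 in Sg-Con, and Irf1 over Irf8 was 2.51, 2.14 and 1.95 in Sg-C3, against 1.32, 1.80 and 1.81 in Sg-Con. Neither pair of groups overlapped, with log2 differences of 1.33 (SE 0.32) and 0.43 (SE 0.18), each at the smallest exact p of 0.1 (adjusted p = 0.15). The ratios that overlapped were Irf5 over Irf8 (log2 difference -0.26, SE 0.17, exact p = 0.2, adjusted p = 0.24) and Irf4 over Irf8, both PU.1 partners (-0.06, SE 0.50, exact and adjusted p = 1.0). Irf4 over Irf8 ran from 0.0532 to 0.0993 in Sg-C3 and from 0.0427 to 0.116 in Sg-Con, a spread that leaves room for a change either way.

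**Figure D4:**
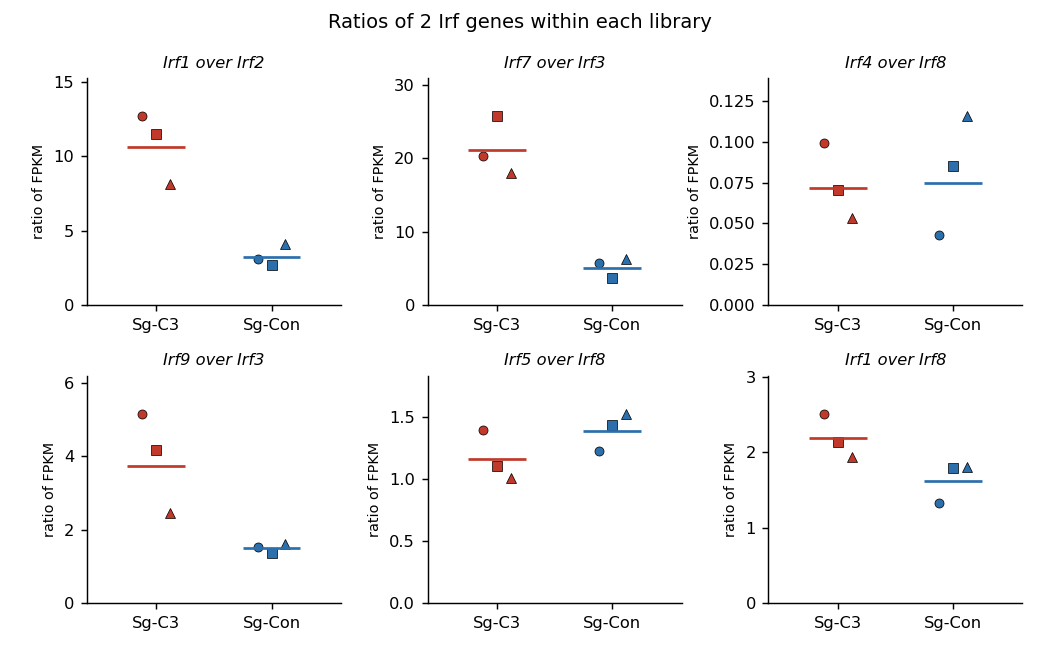
Ratios of FPKM of 2 Irf genes in each library, Sg-C3 in red left of Sg-Con in blue, with bars at the geometric means and axes that start at 0. Irf1 over Irf2, Irf7 over Irf3, Irf9 over Irf3 and Irf1 over Irf8 do not overlap between groups, and Irf4 over Irf8 and Irf5 over Irf8 do.

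Lists of genes around the family were counted in the same fit, to be read beside the 12.7% of tested genes called higher, the 31.7% called lower and the overall median of -0.16. The lists were chosen with earlier results of these data known, so their counts are descriptions and are not independent of the data. Upstream of the family, the interferon and receptor genes went both ways. Ifnb1, the gene of interferon beta and a target of IRF3 and IRF7, measured 85.9, 39.2 and 46.4 FPKM in Sg-C3, against 38.7, 22.8 and 24.6 FPKM in Sg-Con. Its log2 fold change of 0.93 only just passed (limma adjusted p = 0.0465), and it did not pass without Sg-C3 replicate 1 or 3 or Sg-Con replicate 2 or 3, with the title prefix as a covariate, with a robust variance prior or without the low-value filter. Ifng, which T cells and NK cells make, was listed at 0 in all Sg-Con libraries and at 1.62, 1.15 and 0.85 FPKM in Sg-C3, and it did not pass the low-value filter. Beside it, the 9 markers of NK and cytotoxic cells summed to 38.6, 37.9 and 31.4 FPKM in Sg-C3, against 3.20, 1.52 and 4.27 FPKM in Sg-Con, with Klrk1 the most abundant, and all 5 tested were called higher. Of those 5, Klrb1c, Gzma, Gzmb and Nkg7 were under 1 FPKM in every Sg-Con library. They passed the low-value filter through Sg-C3 alone, so the filter largely fixed that count. Without the filter 7 of the 9 were called higher and none lower. The part of NK and cytotoxic cells in the interferon genes was not tested.

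Of the 5 tested receptor genes 4 were called lower and Ifnar2 was not (limma adjusted p = 0.0589). Ifngr1, a chain of the interferon gamma receptor, had a log2 fold change of -0.77 (limma adjusted p = 0.0108), and Ifnar1, a chain of the type I receptor, of -0.41 (adjusted p = 0.0286). In all, 1 of 6 tested genes of this list was higher and 4 were lower. Without the low-value filter 2 were higher and 3 lower, and the 2 were Ifng (limma adjusted p = 0.00285) and the interferon alpha gene Ifna2 (adjusted p = 0.0117), which averaged 0.527 ± 0.180 FPKM in Sg-C3 and 0.0667 ± 0.0577 FPKM in Sg-Con (SD, n = 3 each). There was 1 lower gene after median-ratio scaling and 2 without Sg-C3 replicate 1 or 2, Sg-Con replicate 1 or 2, or with the title prefix as a covariate.

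Among JAK and STAT genes, which link receptors to Irf1 and Irf9, 6 of 11 rose and 1 fell, with a median log2 fold change of 0.75. Stat4 rose by 2.09 and the kinase gene Jak2 by 1.81, at limma adjusted p of 0.00202 and 0.00107. Stat2, a partner of Irf9 in ISGF3, averaged 29.1 ± 4.90 FPKM in Sg-C3 and 13.8 ± 1.62 FPKM in Sg-Con (SD, n = 3 each) and was called higher (1.02, adjusted p = 0.003). The 1 gene that fell was Stat6, which carries interleukin 4 signals (-0.49, adjusted p = 0.0195), and it was not called after median-ratio scaling or without Sg-C3 replicate 1 or 2 or Sg-Con replicate 1 or 2.

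In the TBK1 arm that activates IRF3 and IRF7, 9 of 17 genes rose and 2 fell, with a median of 0.32. The largest were the nucleic acid sensor genes Zbp1 (log2 fold change 1.63, limma adjusted p = 0.00128), Ifih1 (1.30, adjusted p = 0.0117) and Dhx58 (1.19, adjusted p = 0.0032). Mavs, the adaptor of the RNA sensors, fell (-0.85, adjusted p = 0.0108), as did Tlr4 (-0.41, adjusted p = 0.0484, but 0.0659 without the low-value filter). Tbk1 itself rose by 0.37, while the DNA-sensing pair Mb21d1 (cGAS) and Tmem173 (STING) did not pass, at -0.06 and -0.05. The higher count was 4 or 5 without Sg-C3 replicate 1 or 2 or Sg-Con replicate 2 or 3, and the lower count was 4 without Sg-C3 replicate 3. The lower count was 1 without Sg-C3 replicate 1 or 2 or Sg-Con replicate 1 or 2, and likewise with quantile normalization, median-ratio scaling, no filter or the title prefix as a covariate.

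The MyD88 arm to IRF5 and IRF7 held 2 higher and 4 lower genes of 13, with a median of -0.14, close to that of all genes. Tlr9, the receptor for unmethylated DNA, rose (1.26, limma adjusted p = 0.0138), and so did Myd88 (0.61, adjusted p = 0.0047). Tlr7, a receptor for single-stranded RNA, fell (-0.63, adjusted p = 0.00746). After median-ratio scaling 4 were higher and 2 lower, and the lower count was also 2 after quantile normalization or without Sg-C3 replicate 1 or 2 or Sg-Con replicate 1 or 2. Without Sg-C3 replicate 2, 1 was higher.

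In a list of DNA partners of IRF4 and IRF8 and of related factors, 5 of 11 rose and 1 fell. These counts did not change with any library left out. Batf3, which supports IRF8 in type 1 dendritic cells, rose (1.92, limma adjusted p = 0.0109), as did Batf2 (1.74, adjusted p = 0.00172), a relative that interferon induces. Id2, a related factor of the list and not a DNA partner, also rose (0.91, adjusted p = 0.00215). Spi1, the gene of PU.1, averaged 323 ± 30.1 FPKM in Sg-C3 and 275 ± 11.4 FPKM in Sg-Con and did not pass (adjusted p = 0.0893). Corepressors and negative regulators had 3 higher and 1 lower gene of 13, among them Socs1, an inhibitor of JAK kinases (1.32, adjusted p = 0.00527), and the NF-kB inhibitor gene Tnfaip3 (0.59, adjusted p = 0.00547). Irf2bp1, a corepressor that binds IRF2, fell (-0.64, adjusted p = 0.00593). After quantile normalization or median-ratio scaling 5 genes of this list were higher, and leaving out Sg-C3 replicate 1 or 3 gave 2 lower genes.

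**Figure D5:**
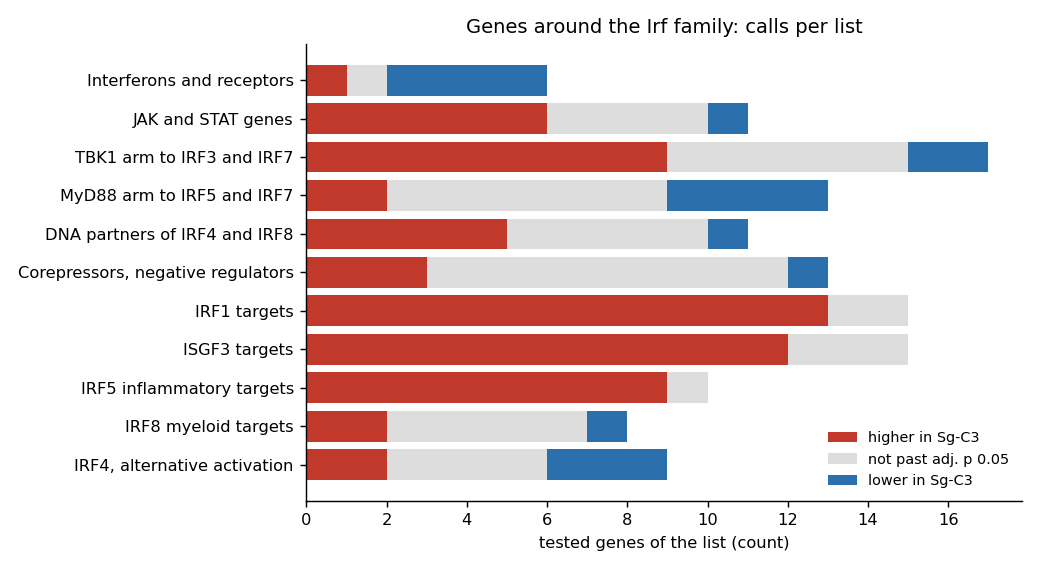
Tested genes of 11 lists around the Irf family, with the number called higher in Sg-C3 in red, not called in grey and called lower in blue. The IRF1, ISGF3 and IRF5 target lists have 13 of 15, 12 of 15 and 9 of 10 genes higher and none lower, while the MyD88 and receptor lists hold more lower than higher genes.

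Downstream, most listed targets of IRF1 and of ISGF3 rose. Of the IRF1 targets 13 of 15 rose and none fell (median 1.42), led by Il27 (3.25, limma adjusted p = 8.88e-04), the PD-L1 gene Cd274 (2.26, adjusted p = 7.80e-04) and the inducible nitric oxide synthase gene Nos2 (2.18, adjusted p = 0.00436). The other 2 did not pass. Il12a, counted here and among the IRF5 genes, was under 1 FPKM in every Sg-Con library. It passed the low-value filter through Sg-C3 alone. Of the ISGF3 targets 12 of 15 rose and none fell (median 1.16), led by the antiviral genes Rsad2 (2.16, adjusted p = 0.00323), Isg15 (2.14, adjusted p = 0.00185) and Ifit2 (1.76, adjusted p = 0.016). The Ifit family and the oligoadenylate synthetase genes have near copies whose reads may be shared.

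The response elements of the targets with the highest fold changes that had a match are shown for comparison, each with 10 bases on either side, read on the strand of the match, with the motif GAAANNGAA in capitals. Where a promoter held several, the match farthest upstream is shown. They are RefSeq sequences of GRCm38.p6.
Rsad2, chr12:26456553-26456581, plus strand: tctgttttctGAAAATGAAagttggacca
Isg15, chr4:156200878-156200906, minus strand: tatgccgtagGAAAAGGAAaccgaaacag
Ifit1, chr19:34640770-34640798, minus strand: actggaaagtGAAACTGAAgcctgcagtt
Cd274, chr19:29367352-29367380, minus strand: cgctgtctgtGAAACCGAAgccacccagt
Gbp5, chr3:142496760-142496788, minus strand: tctctaaactGAAATTGAAactacacaag
Gbp2, chr3:142620595-142620623, minus strand: ttaagacagtGAAAGTGAAactaaaagag

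For Isg15 and Ifit1 the window is 1 of 3 matches in the promoter, which overlap in part. Of the ISGF3 targets 9 of the 13 with a RefSeq promoter held this motif (69.2%), and of the IRF1 targets 4 of 9 (44.4%), against 9.76% of all genes. The gamma-activated site occurred in 4 of 13 and 2 of 9 of them, against 9.55%. These genes are textbook examples of interferon response, so the shares describe the lists.

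Among inflammatory genes that IRF5 can drive, 9 of 10 rose and none fell (median 1.12), although Irf5 itself did not pass. Il12b, the shared subunit of interleukins 12 and 23, led (2.98, limma adjusted p = 0.00211), followed by Ccl5 (2.57, adjusted p = 0.00104) and Il6 (2.11, adjusted p = 0.00225), and Tnf did not pass (0.24). The IRF8 myeloid targets had 2 higher and 1 lower of 8 (median 0.14), namely Il12b again, the phagocyte oxidase gene Cybb (0.88, adjusted p = 0.00272) and Klf4, a monocyte factor, which fell (-1.02, adjusted p = 0.0187) but was not called without Sg-C3 replicate 1 or 2 or Sg-Con replicate 2. After median-ratio scaling 4 of these were higher. The alternative activation genes tied to IRF4 had 3 lower (Arg1 at -3.64, Chil3 at -2.92 and Mrc1 at -2.41) and 2 higher (Ccl22 and Pparg, at 1.74 and 1.45) of 9. Leaving out Sg-C3 replicate 1 left 1 of these higher.

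Irf7 was the only member called with a log2 fold change of at least 1, and the genes whose profile over the 6 libraries was most like its own were sought among 7424 genes. The nearest was Tap1, a peptide transporter gene of class I presentation and 1 of the listed IRF1 targets, with a root mean square difference of 0.061 on the centred log2 scale. It measured 95.2, 104 and 111 FPKM in Sg-C3, against 43.8, 26.2 and 40.9 FPKM in Sg-Con, with the same order of libraries as Irf7 in both groups. H2-DMa (0.089) and Ebi3 (0.101) followed. Plasmacytoid dendritic cells hold much Irf7. The 6 of their markers in the table, nearly all of it Bst2, which is also a listed ISGF3 target, summed to 182 to 194 FPKM in Sg-C3 and 98.0 to 137 FPKM in Sg-Con, with 1 of 2 tested called higher and 1 lower. Without the low-value filter Ccr9 was higher as well, which averaged 0.767 ± 0.248 FPKM in Sg-C3 and 0.267 ± 0.175 FPKM in Sg-Con. Siglech measured 0.210 ± 0.0436 FPKM in Sg-C3 and 0.110 ± 0.0400 FPKM in Sg-Con (SD, n = 3 each). The part of these cells in the Irf7 result was not tested.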

How the data were processed

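RNA-seq of sorted tumour macrophages was measured in 6 libraries, 3 Sg-C3 and 3 Sg-Con, grouped by source name and numbered in accession order. The authors deposited 1 table of FPKM per gene and library with 2 decimals. Trizol extraction and both a TruSeq and an MGIEasy kit are named, per the labels' protocols. Bowtie 0.12.2 and mm8 are named by the submitters' processing notes, and the sources used here do not give the FPKM tool. The reference comes from another strain than BALB/c.

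Genes with at least 1 FPKM in 3 of 6 libraries were tested on log2(FPKM + 1), which understates changes of low genes, with limma 3.58.1 in R 4.3.3 (lmFit, eBayes with a trend, Benjamini-Hochberg). Fold is the ratio of mean FPKM, SE is limma's, and a call is adjusted p below 0.05. The fit was tested on simulated data. Depth came from 438 short genes (88.3% to 94.5% of their values up to 8 reads whole within 0.1 read, with 36 bases taken off the length), chosen to maximise that share. Symbols turned into dates (23) were restored through RefSeq GRCm38.p6.

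Members and lists were chosen with earlier results of these data known. Named are all members, the 3 called genes of each list with the largest change, the 3 nearest profiles of members changed by at least 1, and the most abundant marker of each marker list. Ifng, Ifna2, Ifnar2, Ccr7, Ccr9, Siglech, Spi1, Stat2, Stat6, Tbk1, Tmem173, Mb21d1, Mavs, Tlr4, Tnf, Ccl22, Pparg, Xcr1, Cd22, C3 and the genes of the printed response elements were added after their values were seen. So were Klrb1c, Gzma, Gzmb, Nkg7, Cd4, Cd3g, Cdh1, Clec9a, Il12a, Ifit3 and Ifi44. Some named genes are not reported here. Alternatives were other scalings, pseudocounts, filters, variance priors, array weights, a title covariate and leaving out each library. Python 3.11.15, numpy 2.4.6, pandas 2.3.3, scipy 1.17.1 and matplotlib 3.10.9 were used.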

Additional observations from a re-analysis of the deposited data

How the results depend on the processing

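The count of Irf genes called higher was 3, and became 5 after median-ratio scaling, 4 with array weights (Irf8 joined) and between 2 and 4 with 1 library left out. The count called lower was 2, and became 1 after quantile normalization and with the title prefix as a covariate, 0 after median-ratio scaling, and between 0 and 2 with 1 library left out. The causes of these shifts were not tested, except that a model with 5 libraries has fewer samples. No fold change of an Irf gene changed its sign under any alternative, and the calls of Irf1 and Irf7 held under all of them. The log2 difference of the ratio Irf4 over Irf8 ranged from -0.46 to 0.26 with 1 library left out and so changed sign, while the other 5 ratios kept their direction. A pseudocount of 0.1, no filter and a mean of at least 5 FPKM changed no Irf call, except that Irf4 (mean under 5 FPKM) is not tested there. No paired analysis was possible because the labels give the groups no shared replicate numbers. Irf4 was the member of lowest level, at 2.77 FPKM in its lowest library, and 1 read per kilobase is worth 0.0518 to 0.0570 FPKM.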

Other observations

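Within Sg-Con, the libraries were ordered alike for most members, an observation made after the values were seen. Sg-Con replicate 1 held the highest Sg-Con value of 6 of the 8 Irf genes (Irf1, Irf3, Irf5, Irf7, Irf8 and Irf9) and the lowest of Irf4. Sg-Con replicate 2 held the lowest value of 5 of them (Irf1, Irf5, Irf7, Irf8 and Irf9). Within Sg-C3 there was no such library: replicates 1 and 3 each held the highest value of 4 members.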
